A study of Mus musculus with 8 samples.

Results

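The 10 genes described here encode the vascular endothelial growth factor (VEGF) ligands Vegfa, Vegfb, Vegfc, Vegfd and Pgf, the receptor tyrosine kinases Flt1, Kdr and Flt4, and the co-receptors Nrp1 and Nrp2. They were found by matching their symbols in the GENCODE M21 mouse annotation to the Ensembl identifiers of the count table, and all 10 of 10 were present among its 56691 identifiers. Messenger RNA had been sequenced from 8 tumours of MC38, a colon adenocarcinoma line of mouse origin, growing in C57BL/6J mice, and 4 libraries from control mice were compared with 4 from mice given C26 at 10 mg/kg every second day over 2 weeks. The name C26 is a code, and the sources used here do not give what the control mice received, the age and sex of the animals or whether each tumour came from its own animal, so the p-values measure the spread between these samples. The labels speak of a xenograft, but the line and the host are both mouse, so tumour and host transcripts cannot be told apart by sequence.

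VEGF ligands are secreted dimers that bind receptor tyrosine kinases, mostly on endothelial cells, and drive the growth and permeability of blood and lymphatic vessels. Vegfa signals chiefly through Kdr (VEGFR2), while Flt1 (VEGFR1) binds Vegfa, Vegfb and Pgf tightly, signals weakly and also exists in a soluble form that traps ligand. Vegfc and Vegfd bind Flt4 (VEGFR3), the receptor of lymphatic endothelium, and Vegfc, once cleaved, also binds Kdr. Neuropilins hold ligand and receptor together and also bind class 3 semaphorins.

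Total counts ran from 17075176 to 21517425 per library, and any pair of libraries differed by more than sampling noise (chi-square per degree of freedom of 6.2 or more). In edgeR's quasi-likelihood test 1223 of 15755 tested genes changed at a Benjamini-Hochberg adjusted p under 0.05, which is 7.76%, and 574 of them (46.9%) were higher in C26 against 78.7% of 1949 when counts were scaled by total library size. Leaving out control library 1, 2 or 3 lowered this count to 643, 703 or 644, and leaving out C26 library 4 lowered it to 725. Levels are given in CPM, which are counts scaled to the effective library size. Epithelial markers were nearly absent from tumours of this carcinoma line: 1 of 9 listed, Cdh1, passed the filter on low counts, with means of 3.35 ± 0.605 CPM for control and 2.77 ± 0.39 CPM for C26 (SD, n = 4 each), and Epcam had 0 to 6 reads per library. Skeletal muscle markers were uneven, at a summed level of 13.6 to 49.9 CPM in control and 53.6, 673, 155 and 30.5 CPM in C26 libraries 1 to 4. The mean log2 CPM of the tested ones was -0.63, 1.59, -0.61 and -0.71 in control and 2.04, 5.29, 3.37 and 1.31 in C26. Muscle level thus largely followed the group, and 89 of 15755 genes passed in a fit that included it. That fit cannot separate muscle level from treatment well, so a gene that did not pass in it says little about muscle.

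All 10 genes passed the filter on low counts, and 1 of them, Vegfd, changed (adjusted p under 0.05), a share close to the 7.76% of all tested genes (3.64% higher and 4.12% lower in C26). In 2 of 10, Vegfd and Flt4, every C26 library lay above every control library, against 7.91% of tested genes that did so in that direction. The median log2 fold change of the 10 genes was -0.03 beside 0.01 for all tested genes, with 5 of the 10 above 0, against 51.0% of all tested genes. At an unadjusted p under 0.05 there were 5 genes (Vegfb, Vegfd, Pgf, Kdr and Flt4), where 25.6% of all tested genes reached that level.

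**Figure D1:**
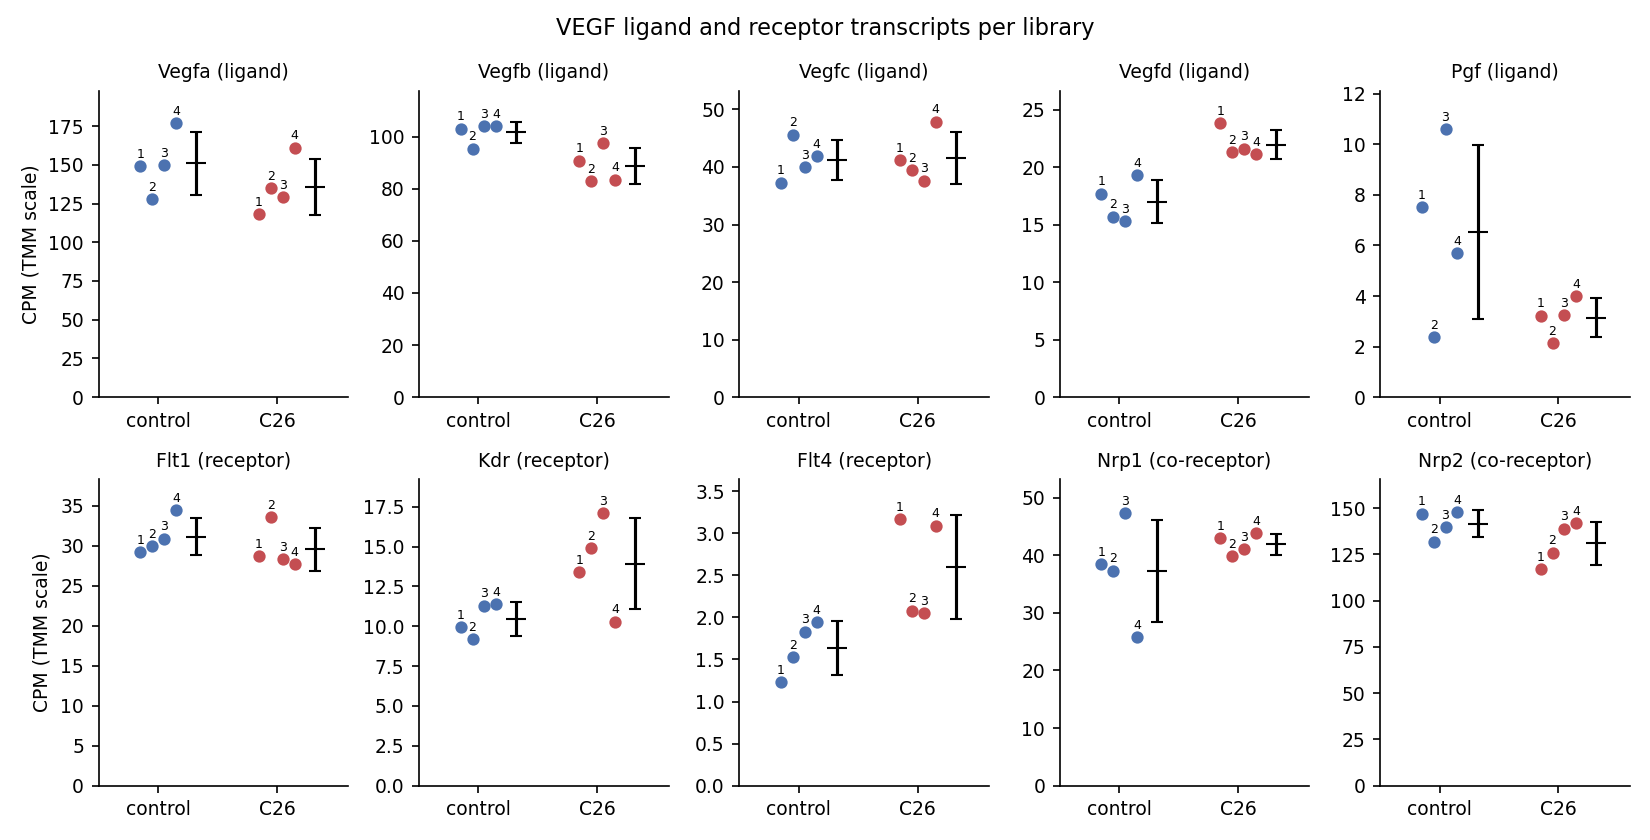
Level of each VEGF ligand, receptor and co-receptor in every library, in CPM (the deposited counts scaled to library size) on the TMM scale, with the library number above each point and the mean and SD of 4 libraries to its right. Vegfd and Flt4 have all 4 C26 libraries above all 4 control libraries, and the other genes overlap.

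Per kilobase of exon, Vegfb, Vegfa and Vegfc were the most abundant of the 10 genes in both groups. In control tumours Vegfb was highest at 63.3 ± 2.61 CPM per kb (SD, n = 4), followed by Vegfa at 35.2 ± 4.7, Vegfc at 16.8 ± 1.42, Nrp2 at 11.9 ± 0.609, Vegfd at 7.06 ± 0.768 and Nrp1 at 3.8 ± 0.902 CPM per kb. Flt1 at 2.31 ± 0.173 and Pgf at 2.25 ± 1.18 CPM per kb could not be ranked against each other, and Kdr at 1.16 ± 0.118 and Flt4 at 0.198 ± 0.0389 CPM per kb were lowest. In C26 tumours the order was the same except that Kdr, at 1.54 ± 0.315 CPM per kb, stood above Pgf at 1.08 ± 0.265 CPM per kb. Lengths are the union of all annotated exons, from 1605 bases for Vegfb to 13504 for Flt1, so a gene used mostly as a short transcript is set too low. Counts are per gene and do not separate the splice forms of Vegfa (13 annotated transcripts) or soluble from membrane Flt1 (6 annotated transcripts).

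Among the ligands, Vegfd was the one that rose. Vegfd (chromosome X, 164373378 to 164402650, plus strand, GRCm38) binds Flt4 and was first found as a Fos-induced gene in mouse fibroblasts. Its level was 17.7, 15.7, 15.3 and 19.3 CPM in control libraries 1 to 4 and 23.8, 21.3, 21.6 and 21.1 CPM in C26 libraries 1 to 4, from 297 to 473 reads each. The groups did not overlap, and the smallest gap was between control library 4 and C26 library 4. The fold change was 1.29, a log2 fold change of 0.37 ± 0.0993 (SE, 95% interval 0.16 to 0.58, edgeR adjusted p = 0.0334). Leaving out 1 library kept the log2 fold change between 0.32 and 0.43, but in 6 of 8 cases ended the call. The edgeR adjusted p became 0.0713, 0.0972 or 0.104 when control library 1, 2 or 3 was removed, and 0.0632, 0.0622 or 0.0548 when C26 library 1, 3 or 4 was. In a fit that included skeletal muscle level, the log2 fold change was 0.46 and did not pass (edgeR adjusted p = 0.155). DESeq2 gave an adjusted p of 0.0125 and limma-voom one of 0.0254.

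Fibroblast markers were also higher in the C26 group. The summed level of the 12 fibroblast markers was 6943, 6618, 7450.0 and 5281 CPM in control and 10777, 8385, 8236 and 10802 CPM in C26 libraries 1 to 4, with no overlap. In a sum the most abundant markers weigh most. The mean log2 CPM of the 12 was 7.47, 7.24, 7.6 and 6.95 in control and 7.88, 7.61, 7.57 and 7.86 in C26. By that measure the groups overlapped, as C26 library 3 lay below control library 3. In each group library 4 had the opposite rank in Vegfd and in the fibroblast sum. Control library 4 had the highest control Vegfd and the lowest control sum, and C26 library 4 the lowest C26 Vegfd and the highest C26 sum. C26 library 1, the highest in Vegfd, had a sum of 10777 CPM, close to the highest. Set against the fibroblast sum, Vegfd stood at 2.55, 2.37, 2.06 and 3.65 CPM per 1000 marker CPM in control libraries 1 to 4. In C26 libraries 1 to 4 it stood at 2.21, 2.54, 2.62 and 1.96. The means were 2.66 ± 0.693 for control and 2.33 ± 0.307 for C26 (SD, n = 4), and the groups overlapped. This comparison was chosen after the values were seen. The part of fibroblast content in the Vegfd result was not tested further. In bulk tumours a different number of cells of a type and a different amount of RNA per cell cannot be told apart.

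The other ligands did not pass. Vegfa (chromosome 17, 46016993 to 46032369, minus strand), the main angiogenic ligand, was at 149, 128, 149.6 and 177 CPM in control libraries 1 to 4 and 118, 135, 129 and 161 CPM in C26 libraries 1 to 4. These ranges overlapped for most of their length, and the interval of the log2 fold change ran from -0.37 to 0.07. Vegfb (chromosome 19, 6982473 to 6987651, minus strand) binds Flt1 alone among the receptor kinases. Its level was 103, 95.4, 104 and 104 CPM in control and 90.8, 82.9, 97.4 and 83.4 CPM in C26 libraries 1 to 4. One C26 library, the third, exceeded the lowest control library, and the log2 fold change was -0.20 ± 0.0712 (SE, edgeR adjusted p = 0.0953). Vegfc (chromosome 8, 54077606 to 54187096, plus strand) shares the receptor Flt4 with Vegfd. Its mean levels were 41.2 ± 3.49 CPM for control and 41.5 ± 4.48 CPM for C26 (SD, n = 4), with an interval from -0.18 to 0.20.

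Pgf (chromosome 12, 85166635 to 85177790, minus strand) encodes placental growth factor, which binds Flt1. Its level was 7.5, 2.38, 10.6 and 5.7 CPM in control libraries 1 to 4 and 3.22, 2.13, 3.24 and 4 CPM in C26 libraries 1 to 4. Control library 2 lay among the C26 libraries, while the other 3 control libraries lay above all of them. The mean in C26 was 0.48 of that in control by the fitted fold change (log2 -1.06 ± 0.394 SE, interval -1.95 to -0.17, edgeR adjusted p = 0.131). Without control library 2 the log2 fold change was -1.34 and passed (edgeR adjusted p = 0.00802), while in a fit that included skeletal muscle level it was 0.12 (adjusted p = 0.938). Relative to Vegfa in CPM, Pgf was at 0.0186 to 0.0707 in control and 0.0158 to 0.0272 in C26, a difference of -0.75 on the log2 scale (exact two-sided permutation p = 0.2, adjusted p = 0.24 over 6 ratios).

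As shares of the summed ligand level per kilobase, Vegfb took 50.9 ± 1.46% in control and 48.4 ± 3.81% in C26 and Vegfa took 28.1 ± 2.12% and 27.8 ± 3.1%. Vegfd made up 5.66 ± 0.437% in control and 8 ± 0.63% in C26, and its highest control share, 6.01%, was below its lowest C26 share, 7.35%. Pgf made up 1.79 ± 0.923% and 0.945 ± 0.2% (all SD, n = 4 per group). These shares are a description and were not tested.

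**Figure D2:**
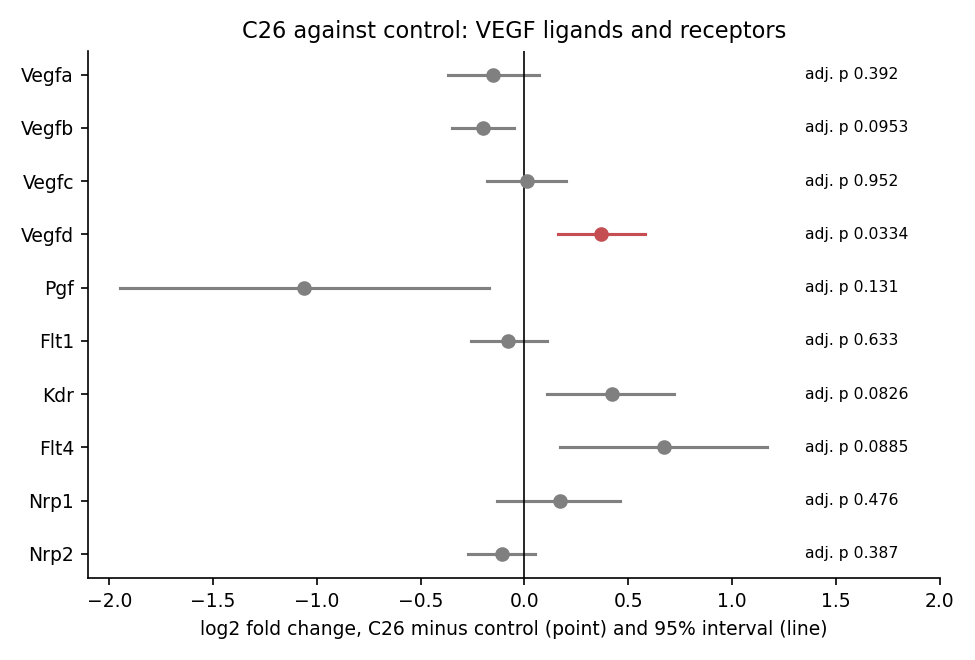
Log2 fold change, C26 minus control, with its 95% interval from edgeR's quasi-likelihood fit and the adjusted p over all 15755 tested genes. Vegfd (red) is the gene past the threshold, and the intervals of Vegfb, Pgf, Kdr and Flt4 leave out 0 but their adjusted p did not pass.

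None of the 3 receptor kinase genes passed in edgeR, where 7.76% of all tested genes did, and 0 of 3 passed in DESeq2 (1813 of all 15755). At an unadjusted p under 0.05 there were 2 of 3, Kdr and Flt4, beside 25.6% of all tested genes. Kdr (chromosome 5, 75932827 to 75978458, minus strand), the main signalling receptor of blood vessel endothelium, was at 9.95, 9.2, 11.3 and 11.4 CPM in control libraries 1 to 4 and 13.4, 14.9, 17.1 and 10.3 CPM in C26 libraries 1 to 4. C26 libraries 1 to 3 were above all controls, and C26 library 4 was inside the control range. The log2 fold change was 0.42 ± 0.144 (SE, interval 0.11 to 0.72) and did not pass (edgeR adjusted p = 0.0826). Kdr passed without C26 library 4 (log2 0.54, edgeR adjusted p = 0.031), in limma-voom with sample quality weights (adjusted p = 0.0422), without a low-count filter (0.0297) and with total library size scaling (0.036). Without C26 libraries 2 and 3, the highest both in muscle RNA and in Kdr, its log2 fold change was 0.18 (adjusted p = 0.527).

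Flt1 (chromosome 5, 147561604 to 147726011, minus strand), the receptor that also acts as a ligand trap, was at 29.2, 30, 30.9 and 34.5 CPM in control and 28.7, 33.6, 28.3 and 27.7 CPM in C26 libraries 1 to 4. The groups overlapped, and the interval of the log2 fold change ran from -0.26 to 0.11 (edgeR adjusted p = 0.633). The ratio of Flt1 to Kdr in CPM was 2.75 to 3.26 in control and 1.65 to 2.68 in C26, so that every C26 library was below every control library. The difference was -0.47 on the log2 scale, and its exact two-sided permutation p of 0.0286 is the smallest that 4 against 4 can give (adjusted p = 0.171 over 6 ratios). In the summed level of the 3 receptor kinases per kilobase, the Flt1 share was 63 ± 1.62% in control and 54.2 ± 3.67% in C26, and that of Kdr was 31.6 ± 1.5% and 37.9 ± 5.19% (SD, n = 4).

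Flt4 (chromosome 11, 49609263 to 49652739, plus strand), the receptor of Vegfc and Vegfd, was the least abundant of the 10, with 26, 29, 37 and 32 reads in control libraries 1 to 4 and 60, 40, 45 and 61 reads in C26 libraries 1 to 4. This came to 1.23, 1.53, 1.83 and 1.94 CPM in control and 3.17, 2.08, 2.05 and 3.09 CPM in C26. The groups did not overlap, though C26 libraries 2 and 3 stood just above control library 4. The log2 fold change of 0.67 ± 0.236 (SE, interval 0.17 to 1.17) did not pass (edgeR adjusted p = 0.0885, and 0.0806 to 0.223 with 1 library left out). It passed with total library size scaling (log2 0.75, adjusted p = 0.0489) and without C26 libraries 2 and 3 (log2 0.94, adjusted p = 0.047). Of 7 lymphatic endothelial markers, 3 were abundant enough to be tested, and 0 of 3 passed in edgeR (2 at an unadjusted p under 0.05, 2 in DESeq2 and 1 in limma-voom). Of all 15755 tested genes, 7.76% passed in edgeR and 25.6% reached an unadjusted p under 0.05. DESeq2 called 1813 of the 15755 and limma-voom 1525. The 3 lymphatic markers went in different directions, with a median log2 fold change of -0.01. Lyve1, a hyaluronan receptor of lymphatic endothelium that some macrophages also carry, was at 1.75, 0.899, 1.93 and 1.76 CPM in control and 2.38, 3.32, 4.7 and 2.03 CPM in C26 libraries 1 to 4 (log2 fold change 0.97, edgeR adjusted p = 0.0503), and passed when C26 library 1 or 4 was removed (lowest adjusted p 0.0365). Foxc2, a transcription factor of lymphatic valves that is named after its value was seen, was lower, at 11.3, 11.9, 15.7 and 15.6 CPM in control and 7.97, 11.9, 10.3 and 7.8 CPM in C26 libraries 1 to 4 (log2 fold change -0.52, edgeR adjusted p = 0.0527), and passed when C26 library 2 was removed (adjusted p = 0.0267). Pdpn, podoplanin, had a log2 fold change of -0.01. The lymphatic marker Mmrn1 had 0 reads in all 4 control libraries and 15, 2, 6 and 0 reads in C26 libraries 1 to 4, and Prox1, the defining lymphatic transcription factor, had 0 or 1 reads in every library except C26 library 1, which had 7. The summed level of the 7 markers, most of it Pdpn, was 93.8 to 118 CPM in control and 102 to 106 CPM in C26. C26 library 4, one of the 2 highest in Flt4, had 0 reads of both Mmrn1 and Prox1.

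Receptor kinase levels were set beside endothelial markers, though which cells carried the receptors in these tumours was not measured. Of 17 tested endothelial markers, 4 rose in C26 and 0 fell, with a median log2 fold change of 0.46 beside 0.01 for all tested genes, of which 3.64% rose. The 4 were Ptprb (log2 0.81), a phosphatase of endothelial junctions, the angiopoietin receptor gene Tek (0.89), Clec14a (0.94) and Mmrn2 (0.87), a matrix protein of vessels. It became 1 when control library 1 was removed, 2 when control library 2 was, 8 when control library 3 was and 1 when C26 libraries 2 and 3 both were. Ptprb passed in all 8 such fits. Removing control library 1 ended the call of Tek (edgeR adjusted p = 0.0502). Clec14a missed the threshold when C26 library 3 or either of control libraries 1 and 2 was removed (highest edgeR adjusted p 0.0794), as did Mmrn2 on removal of C26 library 1 or any control library but the third (highest 0.0782). In the fit that included skeletal muscle level, where 89 of all 15755 tested genes passed, none of the 4 did (log2 0.78 to 1.16, lowest edgeR adjusted p 0.118). None of the 18 listed endothelial markers was at 0 over a whole group. Their summed level was 128, 127, 201 and 144 CPM in control and 214, 172, 195 and 171 CPM in C26, and control library 3 stood inside the C26 range.

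Per endothelial level, Kdr was at 0.056 to 0.0793 in control and 0.0606 to 0.0878 in C26, a log2 difference of 0.05 that changed sign without control library 3 or without C26 library 2 or 3 (-0.06, -0.03 and -0.03; exact permutation p = 0.83 with all libraries, and the same after adjustment). Flt1 per endothelial level was at 0.154 to 0.24 in control and 0.134 to 0.196 in C26, a log2 difference of -0.42 (exact permutation p = 0.0857, adjusted p = 0.24). Flt4 per endothelial level was at 0.0091 to 0.0135 and 0.0105 to 0.0181, a log2 difference of 0.32 (exact permutation p = 0.2, adjusted p = 0.24). All 3 of these ratios overlapped between the groups, and whether endothelial content plays a part in the receptor levels was not tested beyond them.

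**Figure D3:**
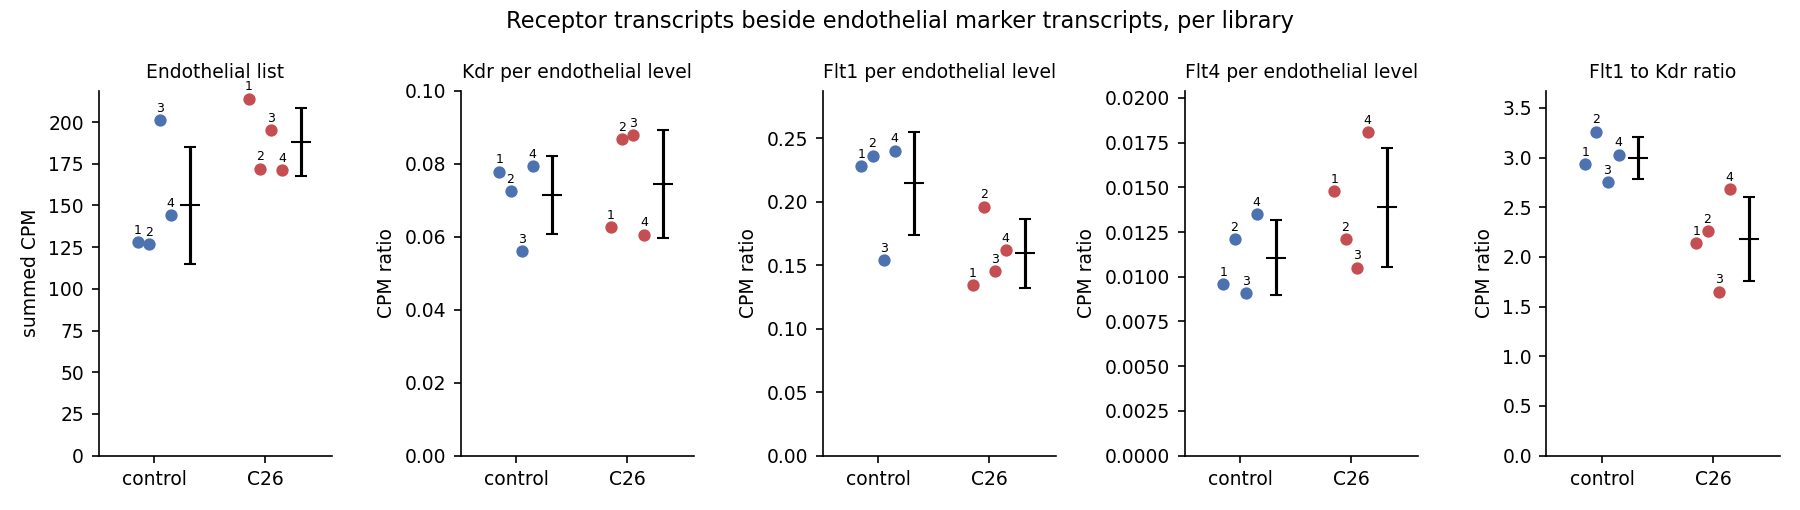
Summed CPM of the 18 endothelial markers, each receptor kinase divided by that sum, and the ratio of Flt1 to Kdr, per library (library number above each point, mean and SD of 4 libraries to the right). The Flt1 to Kdr ratio is the panel in which the groups do not overlap, at 2.75 to 3.26 in control and 1.65 to 2.68 in C26.

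The co-receptors did not pass either. Nrp1 (chromosome 8, 128358604 to 128503363, plus strand) was at 38.4, 37.3, 47.3 and 25.8 CPM in control and 43, 39.8, 41 and 43.8 CPM in C26 libraries 1 to 4. The C26 libraries lay close together inside the wide control range (log2 0.17, interval -0.13 to 0.46, edgeR adjusted p = 0.476). Nrp2 (chromosome 1, 62703285 to 62818695, plus strand), which prefers Vegfc and class 3 semaphorin 3F, had mean levels of 142 ± 7.22 CPM for control and 131 ± 11.9 CPM for C26 (SD, n = 4, edgeR adjusted p = 0.387). The ratio of Nrp1 to Nrp2 was 0.175 to 0.339 in control and 0.294 to 0.368 in C26 (log2 difference 0.31, exact permutation p = 0.171, adjusted p = 0.24).

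The promoters of Vegfd, Flt4, Kdr and Flt1 are shown because these are the genes on which the differences above rest: Vegfd and Flt4 are the ligand and receptor whose groups did not overlap, and Kdr and Flt1 are the pair whose ratio did not overlap between groups. Sequences are from RefSeq on GRCm38.p6, 5′ to 3′ on the strand of the gene, from 250 bases before to 50 bases after the annotated start, at chrX:164373272-164373571 (plus strand) for Vegfd, chr11:49609429-49609728 (plus) for Flt4, chr5:75978406-75978705 (minus) for Kdr and chr5:147725962-147726261 (minus) for Flt1. Capitals mark, on either strand, the GC box GGGCGG, the TATA box TATAAA, the hypoxia response element core ACGTG and the ETS core AGGAAG, and each match was counted whether or not it overlapped another.
Vegfd: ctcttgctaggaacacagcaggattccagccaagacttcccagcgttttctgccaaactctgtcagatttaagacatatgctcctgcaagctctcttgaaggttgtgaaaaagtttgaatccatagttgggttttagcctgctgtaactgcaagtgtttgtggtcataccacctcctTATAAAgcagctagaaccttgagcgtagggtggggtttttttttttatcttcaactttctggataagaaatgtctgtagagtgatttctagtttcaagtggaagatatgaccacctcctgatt
Flt4: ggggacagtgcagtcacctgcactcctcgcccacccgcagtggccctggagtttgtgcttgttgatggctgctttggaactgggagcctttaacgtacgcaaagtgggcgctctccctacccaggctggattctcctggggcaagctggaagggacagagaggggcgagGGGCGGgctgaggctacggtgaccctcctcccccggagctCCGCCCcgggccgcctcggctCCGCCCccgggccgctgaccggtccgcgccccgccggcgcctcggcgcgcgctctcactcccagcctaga
Kdr: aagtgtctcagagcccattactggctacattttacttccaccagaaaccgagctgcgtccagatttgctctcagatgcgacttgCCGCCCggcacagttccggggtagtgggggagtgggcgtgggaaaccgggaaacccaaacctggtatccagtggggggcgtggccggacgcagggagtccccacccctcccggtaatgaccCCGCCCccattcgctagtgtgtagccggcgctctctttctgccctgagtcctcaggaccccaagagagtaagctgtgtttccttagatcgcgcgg
Flt1: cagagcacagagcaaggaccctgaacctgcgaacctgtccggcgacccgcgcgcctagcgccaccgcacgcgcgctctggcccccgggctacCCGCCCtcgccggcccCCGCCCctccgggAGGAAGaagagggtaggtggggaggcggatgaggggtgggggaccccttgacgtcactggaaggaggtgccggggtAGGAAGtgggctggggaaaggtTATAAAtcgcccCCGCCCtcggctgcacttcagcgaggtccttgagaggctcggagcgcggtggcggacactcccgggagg

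The Vegfd window stood apart from the others in letters. It was 42% G or C, below the median of 52.7% over 32851 mouse windows of that length, while those of Flt4, Kdr and Flt1 were 70.3%, 60.7% and 70.7%. Vegfd had 1 TATA box match and 0 GC box matches, Flt4 had 3 GC box matches, Kdr had 2, and Flt1 had 3 together with 1 TATA box and 2 ETS core matches. Over all 12 windows of the 10 genes, 10 held a GC box (35.7% of all mouse windows do), 2 held a TATA box (13.6%), 2 an ETS core (35.4%) and 1 the hypoxia core (19.6%), the last in the downstream of 2 Vegfa windows. No value here bears on the use of these sites.

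Of genes that process or store VEGF ligands, 5 of 17 tested rose and 0 fell, at a median log2 fold change of 0.14, where 3.64% of all tested genes rose and 4.12% fell. Sulf1 and Sulf2, which encode the extracellular sulfatases that trim heparan sulfate, the matrix sugar to which long VEGF forms bind, were among them. Sulf1 was at 0.755, 1.16, 1.24 and 0.727 CPM in control and 3.17, 3.01, 2.23 and 2.43 CPM in C26 (log2 1.47 ± 0.248 SE, edgeR adjusted p = 0.00365), and Sulf2 was at 85.2, 70.7, 88.2 and 75 CPM and at 127, 99.9, 121 and 122 CPM (log2 0.56 ± 0.0887 SE, edgeR adjusted p = 0.00291). Both groups were separate for each gene, and both calls held without any 1 library. In the fit that included skeletal muscle level Sulf2 passed (edgeR adjusted p = 0.00446), as did Mmp2 and Adamts1, while Sulf1 (log2 1.29, adjusted p = 0.119) and Plat (log2 0.37, adjusted p = 0.17) did not. The gelatinase gene Mmp2 rose from 67.1 ± 8.9 to 109.6 ± 23.4 CPM and Plat, tissue-type plasminogen activator, from 56.2 ± 4.36 to 71.2 ± 6.4 CPM (SD, n = 4), and the protease gene Adamts1, named after its value was seen, rose by 0.40 on the log2 scale. Removing control library 4 ended the call of Mmp2 (edgeR adjusted p = 0.0505). Plat and Adamts1 each missed the threshold when C26 library 4 or either of control libraries 1 and 2 was removed (highest edgeR adjusted p 0.0793 and 0.084), and the list count was 3 on removal of control library 1 and of control library 2. Among the other protease genes of the list, Adamts3 had 0 to 7 reads per library and was not tested. Furin, Pcsk7 and Plau were tested and did not pass (log2 -0.04, 0.08 and -0.31, edgeR adjusted p 0.796, 0.603 and 0.228). Sulf1, Sulf2 and Mmp2 are also made by fibroblasts, whose marker sum is given beside Vegfd above.

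Inside the cell, 2 of 41 tested genes of VEGF receptor signalling rose and 1 fell, at a median log2 fold change of 0.02. That is close to the 3.64% and 4.12% of all tested genes that rose and fell, so the count says nothing particular about the list. Pik3r1, a regulatory subunit of phosphoinositide 3-kinase, was at 57.8, 63.1, 60.4 and 47.2 CPM in control and 103, 80.9, 69.9 and 98.8 CPM in C26, with no overlap (log2 0.62 ± 0.122 SE, edgeR adjusted p = 0.0108). Prkca, protein kinase C alpha, rose by 0.34 and Map2k2, the kinase MEK2, fell by 0.25 on the log2 scale. Prkca missed the threshold on removal of C26 library 4 or of control library 3 (highest edgeR adjusted p 0.0712), and Map2k2 on removal of any library other than C26 libraries 1 and 3 (highest 0.119). Removing control library 3 left 1 called gene of the list, and removing C26 library 1 gave 5. None of the 3 passed in the fit that included skeletal muscle level (edgeR adjusted p 0.102 for Pik3r1, 0.315 for Prkca and 0.522 for Map2k2). These genes are used by many receptors and many cell types.

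Among the other partners of neuropilins (semaphorins, plexins, Gipc1 and L1cam), 2 of 12 tested rose and 0 fell, at a median of 0.16. Of all tested genes 3.64% rose. The plexin gene Plxna2 rose from 12.9 ± 1.89 to 18.4 ± 2.89 CPM and Sema3c, a secreted class 3 semaphorin, from 13.9 ± 2.36 to 18.7 ± 0.822 CPM (SD, n = 4, edgeR adjusted p = 0.0286 and 0.033). Neither passed when C26 library 4 or either of control libraries 1 and 2 was removed. Plxna2 also missed the threshold on removal of control library 4, and Sema3c on removal of control library 3, C26 library 2 or C26 library 3 (highest edgeR adjusted p 0.0897 and 0.101). Sema3c did not pass in the fit that included skeletal muscle level (edgeR adjusted p = 0.202).

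Upstream of Vegfa, 0 of 11 tested genes of oxygen sensing passed in edgeR, where 7.76% of all tested genes did. At an unadjusted p under 0.05 there were 4 of 11, beside 25.6% of all tested genes. DESeq2 called 1 of 11 (1813 of all 15755) and limma-voom 1 of 11 (1525 of all 15755). The median of the 11 was -0.13, with 3 of 11 above 0. The summed level of these genes with the untested members was 941 to 1001 CPM in control and 878 to 923 CPM in C26, with no overlap, and was not tested. The mean log2 CPM of the 11 tested genes did overlap, at 5.86 to 6.07 in control and 5.82 to 5.96 in C26. Epas1, which encodes the hypoxia-inducible factor HIF-2 alpha and is strong in endothelium, had the smallest p and was higher in C26, with means of 6.23 ± 0.86 CPM for control and 8.55 ± 0.93 CPM for C26 (SD, n = 4, edgeR adjusted p = 0.0603). It passed on removal of control library 3 (edgeR adjusted p = 0.0487). Members below 0 included Egln1, an oxygen-sensing prolyl hydroxylase (log2 -0.20, edgeR adjusted p = 0.13), and Elob, elongin B of the VHL ubiquitin ligase (log2 -0.22, adjusted p = 0.12), both named after their values were seen. Elob passed on removal of C26 library 1 (edgeR adjusted p = 0.0181). Of genes that VEGF is known to induce in endothelial cells, 1 of 16 rose (3.64% of all tested genes did) and 0 fell, at a median of 0.11. That gene was Nid2, a basement membrane nidogen, with means of 20.9 ± 1.52 CPM for control and 28.7 ± 2.06 CPM for C26 (log2 fold change 0.45, edgeR adjusted p = 0.00792), and the count was 2 without control library 3. Nid2 did not pass in the fit that included skeletal muscle level (edgeR adjusted p = 0.0881). Of the 16 genes of this list, 9 were above 0. Esm1, Angpt2 and Apln, named after their values were seen, were below 0 (log2 -0.44, -0.43 and -0.23, edgeR adjusted p 0.504, 0.319 and 0.697).

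**Figure D4:**
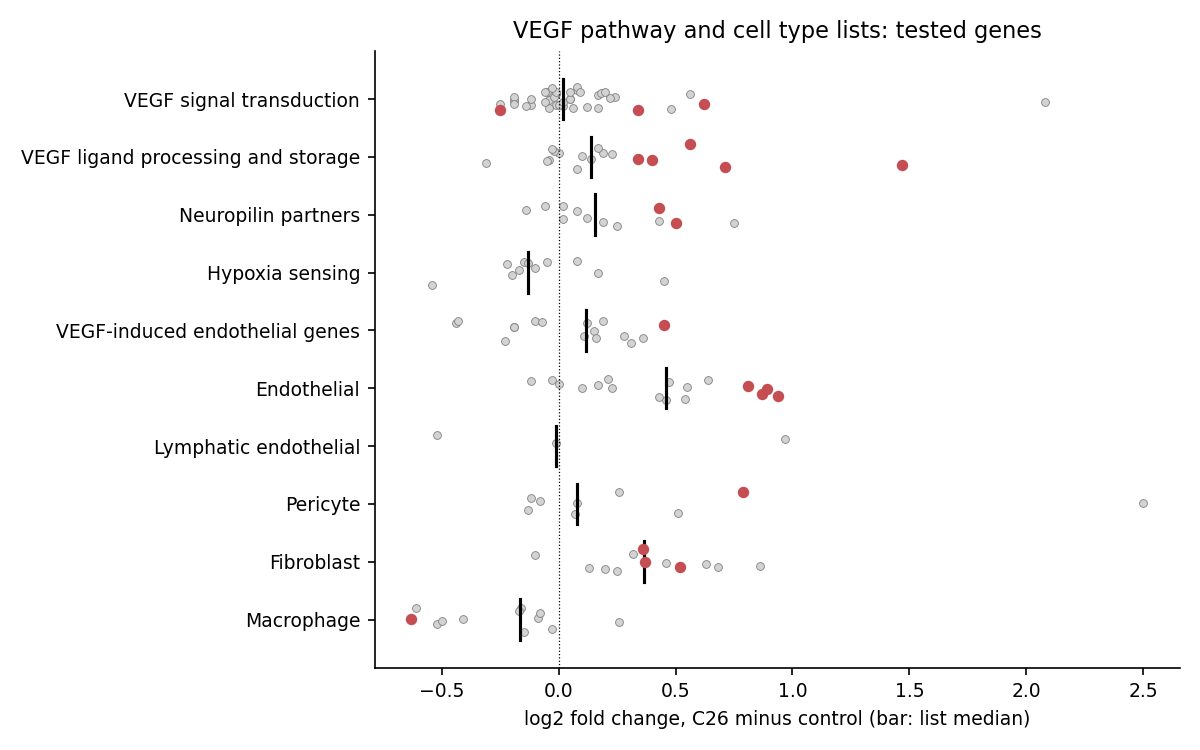
Log2 fold change, C26 minus control, of every tested gene in the VEGF pathway and cell type lists other than skeletal muscle and tumour epithelium, which are not drawn (grey, not past the adjusted threshold; red, past it; black bar, list median). Of the lists drawn, endothelial and fibroblast genes have the highest medians, 0.46 and 0.36, and VEGF signal transduction lies near 0 at 0.02.

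Genes of other cell types are given next, where 3.64% of all tested genes rose and 4.12% fell. Of all 15755 tested genes, 25.6% reached an unadjusted p under 0.05 in edgeR. DESeq2 called 1813 of the 15755 and limma-voom 1525. In lists this short a single called gene says little about the list. Of 9 pericyte genes 1 rose, Rgs5, a marker of vessel-wrapping mural cells, from 11 ± 2.6 to 19 ± 3.3 CPM (SD, n = 4, edgeR adjusted p = 0.00953), at a list median of 0.08. Of these 9, 6 were above 0, and 2 passed in DESeq2 and 2 in limma-voom. Of 12 fibroblast genes 3 rose and 0 fell, the matrix genes Col5a1, Col6a3 and Sparc (log2 0.52, 0.37 and 0.36), at a median of 0.36, and the count was 5 without control library 3 or 4. Of these 12, 11 were above 0, and 6 passed in DESeq2 and 5 in limma-voom. Of 12 macrophage genes 1 fell, Arg1 (log2 -0.63), at a median of -0.17, and 4, 2 or 5 were called on removal of C26 library 1, C26 library 3 or control library 4. Just 1 of the 12 macrophage genes was above 0, and 6 reached an unadjusted p under 0.05 in edgeR. In DESeq2 6 passed and in limma-voom 4. Their summed level was 826 to 1176 CPM in the control libraries and 718 to 1045 CPM in the C26 libraries. Of 11 tested muscle genes 1 rose, the myosin gene Myh1, which had 0, 5, 0 and 0 reads in control libraries 1 to 4 and 52, 122, 102 and 20 reads in C26 libraries 1 to 4, at a list median of 3.56. All 11 muscle genes were above 0, and 7 reached an unadjusted p under 0.05 in edgeR. In DESeq2 7 passed and in limma-voom 6. In the fit that included skeletal muscle level Rgs5, Sparc and Arg1 did not pass (edgeR adjusted p 0.105, 0.0912 and 0.156), and Col5a1 and Col6a3 did. Removing C26 library 2 gave 4 called muscle genes, and removing C26 library 4 gave 2.

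**Figure D5:**
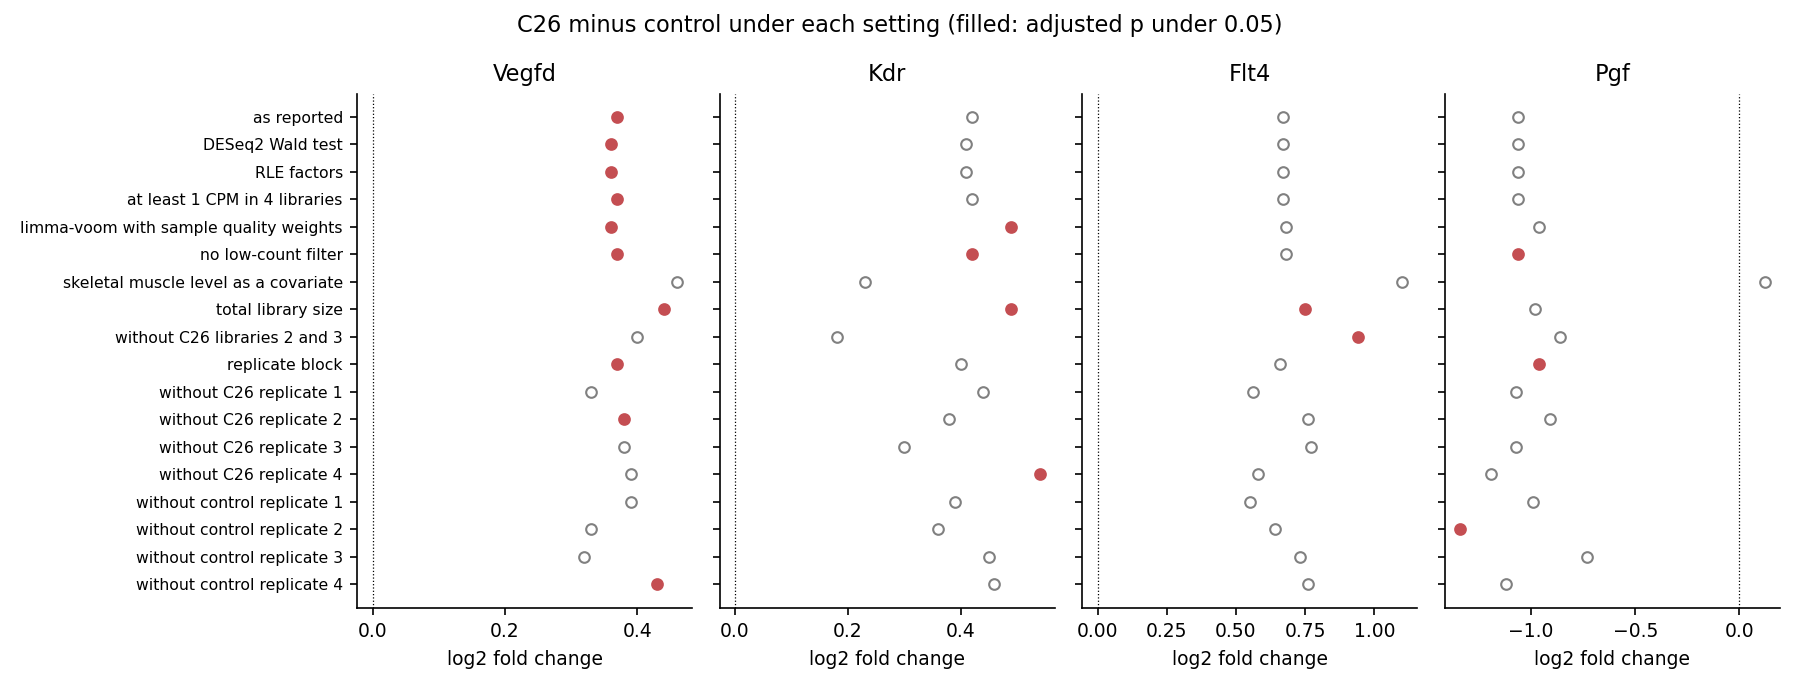
Log2 fold change of Vegfd, Kdr, Flt4 and Pgf, C26 minus control, under each way of processing the counts and with each library left out (filled, adjusted p under 0.05). Vegfd stays between 0.32 and 0.46 throughout, while Pgf reaches 0.12 in the fit that includes skeletal muscle level.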

How the data were processed

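Per the labels' protocols, polyadenylated RNA was sequenced from 8 tumours, and the authors deposited whole-number raw counts per Ensembl gene. The build was mm10, and featureCounts 2.0.1, HISAT2 2.2.1 and Trim Galore 0.6.7 are named, per the submitters' processing notes, whereas the series text names Cutadapt, STAR and RSEM. Annotation release and strand setting were not given in the sources used here. No exon of the 10 genes overlaps another annotated gene, except for 80 bases of Nrp1 shared with a microRNA gene at 0 reads. GENCODE M21 (GRCm38, the assembly of mm10) gave symbols for 52073 identifiers, and the others held 0.769% of counts.

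Genes were kept with filterByExpr and tested with edgeR 4.0.16 in R 4.3.3 (TMM factors, robust quasi-likelihood test, group as the sole term, two-sided, Benjamini-Hochberg over 15755 genes). SEs follow from the fold change and the F statistic. CPM is on the TMM scale, and its log2 form had 2 as the prior count. The 6 ratios were each given an exact permutation test, two-sided, with adjustment over the 6. The 10 genes and the 12 lists were chosen with earlier results of these data known. Named genes were all 10, up to 4 called genes per list with the smallest p, and the nearest gene in lists with none. Alternatives were RLE factors, total library size, other filters, DESeq2 1.42.0, limma-voom (limma 3.58.1), a replicate block, a skeletal muscle covariate (mean log2 CPM of the tested muscle list) and leaving libraries out. Intervals cover the spread between libraries, and a gene with few reads, such as Flt4, is measured less precisely.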

Additional observations from a re-analysis of the deposited data

Results flagged for a closer look

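In 32 groups of 4 libraries (10 genes and 6 ratios in each treatment group) 5 had 1 library far from the other 3, where chance flags about 1 in 20 groups. Vegfb was low in control library 2 at 95.4 CPM beside 103 to 104 CPM in the others. Vegfd was high in C26 library 1 at 23.8 CPM beside 21.1 to 21.6 CPM. Flt1 was high in C26 library 2 at 33.6 CPM beside 27.7 to 28.7 CPM. Flt1 per endothelial level was low in control library 3, at -2.70 on the log2 scale beside -2.13 to -2.06, in the control library with the highest endothelial sum (201 CPM). Pgf relative to Vegfa was low in C26 library 2, at -5.99 on the log2 scale beside -5.33 to -5.20.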

How the results depend on the processing

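Over all tested genes 1223 changed, 1948 without a low-count filter, 1949 with total library size, 89 with a skeletal muscle covariate, and 643 to 1457 with 1 library left out. Of the 10 VEGF genes 1 changed (Vegfd), as with RLE factors, the 1 CPM filter and DESeq2. There were 2 in limma-voom (with Kdr), 3 without a filter (with Pgf and Kdr), 3 with total library size (with Kdr and Flt4), 0 with the muscle covariate in edgeR, and 0 to 1 with 1 library left out. With the replicate block 2 changed (Vegfd and Pgf) of 1184 in all. Same-numbered libraries deviated together at r of -0.0234, 0.135, -0.0195 and 0.0934 only, and not every library correlated best with its own number. Such values cannot settle whether the numbers pair the samples. Without C26 libraries 2 and 3, 1 changed (Flt4).

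With the muscle covariate the log2 fold change was 0.05 for Vegfa and 0.12 for Pgf, against -0.15 and -1.06. That of Vegfc ran from -0.06 to 0.06 with 1 library left out. Kdr per endothelial level ran from -0.06 to 0.14 with 1 library left out, and was -0.20 without C26 libraries 2 and 3 and -0.04 with the mean log2 CPM of the endothelial list. The cause of these changes was not tested. The other 5 ratios kept their direction and passed under no setting, though as 4 pairs the exact test cannot go below 0.125. Called endothelial markers numbered 0 (muscle covariate, edgeR) to 8, ligand processing genes 3 to 7 and signalling genes 0 to 5 over the settings.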

Other observations

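Among 11891 named protein-coding genes with a mean of at least 1 CPM, those whose log2 CPM over the 8 libraries was most like that of Vegfa were Itpr2, an intracellular calcium channel gene (Pearson r 0.969, and 0.966 for deviations from the group means), Tes (0.967 and 0.966) and Mxi1, an antagonist of MYC (0.955 and 0.948). Like Vegfa, Itpr2 did not pass between the groups, with means of 40.8 ± 5.8 CPM for control and 37.2 ± 5.71 CPM for C26 (SD, n = 4, edgeR adjusted p = 0.5). Nearest to Kdr were Ifit1bl1 (0.959 and 0.93), Etl4 (0.944 and 0.893) and Mamld1 (0.938 and 0.891). The highest values among so many genes over 8 libraries are large by selection, and they are a description with no test.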
